A study of Homo sapiens with 12 samples.

Results

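The 10 genes described here belong to the zinc-buffering system and were followed in HepG2 and Ls174 cells. They are the metallothionein genes MT1A, MT1E, MT1F, MT1G, MT1H, MT1M, MT1X and MT2A, the zinc-sensing factor MTF1 and the zinc exporter SLC30A1. The members were taken by name, with earlier results of these data known, and each of the 10 names matched 1 gene ID among the 57736 genes in the count tables, of which 27326 had a count in any library. HepG2 is a human liver cancer line, and Ls174 a human line from a cancer of the colon. Both were grown for 24 h with HME, an extract of the red seaweed Hypnea musciformis, at 0.7 mg/ml by the sample labels (the methods of the study give a slightly higher concentration), or without it at 0 mg/ml. RNA of 3 biological replicates per condition gave 12 libraries of 3′ ends: 3 HepG2 control, 3 HepG2 HME, 3 Ls174 control and 3 Ls174 HME libraries. Each line is a single established line.

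Metallothioneins are small cysteine-rich proteins that bind zinc and copper and also react with oxidants. Their genes lie side by side in a cluster on chromosome 16, and their transcription rises when free zinc, or another metal such as cadmium, rises in the cell. MTF1 senses zinc and binds short metal response elements in the promoters of metallothionein genes and of SLC30A1, whose protein carries zinc out across the plasma membrane. The liver is a main site of metallothionein synthesis.

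In HepG2 cells the transcript of MT2A rose 13.7-fold with HME and that of MT1E 6.19-fold. In Ls174 cells no member passed an adjusted p under 0.05, and the MT2A response differed between the lines. Without HME, MT1A, MT1E and MT1G were higher in Ls174 than in HepG2 cells, and MT1E rather than MT2A led the metallothionein counts in 5 of the 6 Ls174 libraries.

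The total count of a library was between 1790841 and 3656662, and expression values below are CPM, the count of a gene scaled to the library total, after TMM scaling over the 12 libraries. Since 1 end of each transcript is counted, values of different genes are compared without a length term. A floor of 3 counts in a library stood for 0.763 to 1.86 CPM, which covers counting error only. In all, 3 libraries lay apart from their group by the distance between log2 CPM values: HepG2 control 2, HepG2 HME 2 and Ls174 control 1. In HepG2 HME 2 the 5 fibroblast markers summed to 954.5 CPM, nearly all of it COL1A1 and COL1A2, while they summed to at most 10.2 CPM in the other HepG2 libraries and DCN was at 0 in all 6. Of the other lists, the blood markers PTPRC, CD3E and HBB were at 0 in every HepG2 library, where LYZ gave 90.4 to 548 CPM and HBA1 at most 3.72 CPM, and the endothelial markers VWF and CDH5 summed to at most 4.34 CPM. All 8 liver markers had counts in every HepG2 library, with sums of 18090 to 21320 CPM without HME and 12800 to 13970 CPM with it. In Ls174 cells the liver markers summed to 0 to 126.5 CPM, with all 8 detected in control 3. Of the 8 colon markers CDX1, CDX2, LGALS4, VIL1 and GPA33 had counts in all 6 Ls174 libraries. CEACAM5 reached at most 6.01 CPM there, and MUC2 and KRT20 stayed at or under 2.16 CPM. VIL1 overlapped between the lines, at 42.0 to 78.7 CPM in Ls174 and 52.6 to 186.5 CPM in HepG2 cells. The colon markers summed to 320.6 to 390.1 CPM in Ls174 and 56.35 to 192.4 CPM in HepG2 controls. With HME the sums were 288.1 to 319.0 and 99.1 to 129.2 CPM. The part of these differences in the results was not tested, and the calls of the members, and of the gene lists within each line, that changed without the 3 libraries are given below.

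To show what the members share in sequence, promoters were read from RefSeq (build GRCh38.p14, 250 bases before to 50 bases after the start site). The table held 5 of the 10 members: MT2A, MT1X, MT1H, SLC30A1 and MTF1. The core of the metal response element, spelled TGCACNC or TGCGCNC, was searched on both strands. The spellings differ at the fourth letter, so that they cannot match the same letters. The promoters of 3 genes are printed 5′ to 3′ on the strand of the gene, with each match in capitals: that of MT2A, which rose most in HepG2 cells, that of MT1X, a metallothionein gene of the same cluster that did not pass the test, and that of SLC30A1. They lie at chr16:56608334-56608633 on the plus strand (MT2A), chr16:56682220-56682519 on the plus strand (MT1X) and chr1:211579112-211579411 on the minus strand (SLC30A1).
MT2A: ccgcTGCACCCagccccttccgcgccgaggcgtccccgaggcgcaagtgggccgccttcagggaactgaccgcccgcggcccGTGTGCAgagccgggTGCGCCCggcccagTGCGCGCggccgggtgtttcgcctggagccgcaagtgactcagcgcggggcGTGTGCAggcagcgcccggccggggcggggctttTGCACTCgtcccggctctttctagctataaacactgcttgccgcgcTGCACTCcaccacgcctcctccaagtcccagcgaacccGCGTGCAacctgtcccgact
MT1X: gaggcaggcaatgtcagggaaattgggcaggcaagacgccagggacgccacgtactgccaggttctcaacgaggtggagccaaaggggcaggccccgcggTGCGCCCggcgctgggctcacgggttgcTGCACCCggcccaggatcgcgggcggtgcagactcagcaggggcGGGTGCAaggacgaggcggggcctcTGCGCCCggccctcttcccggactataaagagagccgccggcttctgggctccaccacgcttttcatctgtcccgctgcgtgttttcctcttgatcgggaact
SLC30A1: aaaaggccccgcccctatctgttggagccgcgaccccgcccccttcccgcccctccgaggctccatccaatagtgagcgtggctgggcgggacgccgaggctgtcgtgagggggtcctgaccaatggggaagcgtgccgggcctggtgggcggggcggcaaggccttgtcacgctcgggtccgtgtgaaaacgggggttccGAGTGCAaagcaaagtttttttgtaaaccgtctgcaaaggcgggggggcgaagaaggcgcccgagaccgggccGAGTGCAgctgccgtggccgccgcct
The MT2A promoter held 8 matches, 5 on the strand of the gene and 3 on the opposite strand, and the MT1H promoter also held 8. The MT1X promoter held 4 matches and the SLC30A1 promoter 2. No match was found in the window of MTF1. Of all 35116 promoters in the table, 29.6% held at least 1 match, 8.6% at least 2, 0.601% at least 4 and 0.0199% at least 8. A match describes letters and was not tested for binding.

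The reads of nearly every member came from a single region at the 3′ end. In the coordinates of the count tables (GRCh37), the whole count of MT2A came from chr16:56643098-56643606, plus strand, which covers 89 coding bases and 223 bases of untranslated exon by the GENCODE annotation and runs 197 bases past the annotated gene end. For MT1E the single region was chr16:56660734-56661221 with 89 coding and 202 untranslated bases. The counts of MT1A (chr16:56673863-56674196), MT1G (chr16:56700446-56701110, minus strand) and MT1H (chr16:56704648-56705238) also came from 1 region each, and those of SLC30A1 from chr1:211744713-211748729 on the minus strand, with 3820 bases of untranslated exon. MT1M was split between 2 regions, of which chr16:56667755-56668095 held 73.2% of its 41 counts and an intronic region, chr16:56667431-56667627, held 26.8%. The main regions of MT1F (chr16:56692985-56693414) and MT1X (chr16:56717870-56718305) held 96.6% and 99.6% of their counts. The main region of MTF1, chr1:38275042-38280807 on the minus strand, held 95.5% and overlaps the end of C1orf122 on the other strand, a gene with 33.2 to 75.8 CPM, and whether the counting used strand is not given in the sources used here.

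Metallothionein genes resemble each other, so their counts carry some uncertainty. The region of MT1E aligned to MT1M over 485 bases at 91.3% identity, that of MT1G to MT1H at 88.1% identity, and that of MT1X to the processed pseudogene MT1XP1 on chromosome 1 over 239 bases at 92.0%. The closest copy was that of MT2A: MT2P1, a processed pseudogene on chromosome 4, matched 235 bases at 95.7% identity. MT2P1 was counted with 158, 248 and 102 reads in HepG2 controls 1 to 3, against 391, 168 and 520 for MT2A, and with 902, 976 and 869 reads in the HepG2 HME libraries, against 5099, 5682 and 2733. The pseudogene therefore held 59.6% of the joint count in HepG2 control 2, one of the libraries that lay apart, and 10.4% to 31.7% in the other 11. In the Ls174 libraries the highest share, 31.7%, was again in the library apart, control 1. MT2P1, named after its values were seen, had a log2 fold change of 2.34 ± 0.57 (SE) in HepG2 cells (adjusted p = 0.057). How reads that fit both copies were assigned is not given in the sources used here, and so the results for MT2A were also computed with the MT2P1 counts added. For MT1X the pseudogene had the larger part: MT1XP1 held 58.8% to 81.8% of their joint count in the 12 libraries. Its counts were added to MT1X in the same way. Over all alternatives of the HME tests, MT1X was called in 0 of 17 in HepG2 and 0 of 16 in Ls174 cells.

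MT2A, the most abundant metallothionein transcript of HepG2 cells, was at 104.5, 104.0 and 208.8 CPM in HepG2 controls 1 to 3 and at 2005, 1995 and 1632 CPM in HepG2 HME libraries 1 to 3. Every HME library was above every control library. The means were 139 ± 60.4 CPM and 1877 ± 213 CPM (SD, n = 3 each). In the edgeR quasi-likelihood test over 11343 genes the log2 fold change was 3.77 ± 0.40 (SE), with a Benjamini-Hochberg adjusted p of 0.0021. By rank of p MT2A stood at place 16 of these genes. The libraries hold RNA of whole cultures, in which a change of RNA per cell and a change in the share of cells that express a gene cannot be told apart.

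The call of MT2A held in all 18 alternatives, with log2 fold changes between 3.39 and 4.16. Leaving out each library in turn gave adjusted p values of 0.00067 to 0.014. With the MT2P1 counts added it was 3.39 (adjusted p = 0.0022), and without HepG2 control 2 and HepG2 HME 2 it was 3.61 (adjusted p = 0.00013). In HepG2 HME 2, the library with the fibroblast collagens, MT2A was as high as in HME 1, and without that library alone the log2 fold change was 3.75.

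MT1E, which encodes a second abundant isoform, rose from 38.8, 10.5 and 47.4 CPM in HepG2 controls 1 to 3 to 226.5, 156 and 209 CPM in the HME libraries. The groups did not overlap, and HepG2 control 2 was the lowest library. The log2 fold change was 2.63 ± 0.49 (adjusted p = 0.020). This call was less firm than that of MT2A: the adjusted p was 0.056 without HepG2 control 1, 0.078 without HepG2 HME 1 and 0.084 without HepG2 HME 3. Without HepG2 control 2 and HepG2 HME 2 together it was 0.00033.

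MT1E and MT2A were the only members called in HepG2 cells, 2 of the 7 that passed the filter on low counts, both higher. Of all 11343 genes tested, 2.77% were called higher. At the thresholds of the study (an unadjusted p under 0.05 with a log2 fold change larger than 0.58 in size) 5 of 7 members were higher, against 11.3% of all genes, and the 5 are MT1E, MT1G, MT2A, MTF1 and SLC30A1. The same 5 did not overlap between the groups, which held in this direction for 15.5% of all genes. The median log2 fold change of the 7 was 1.05, and that of all genes was -0.04.

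**Figure D1:**
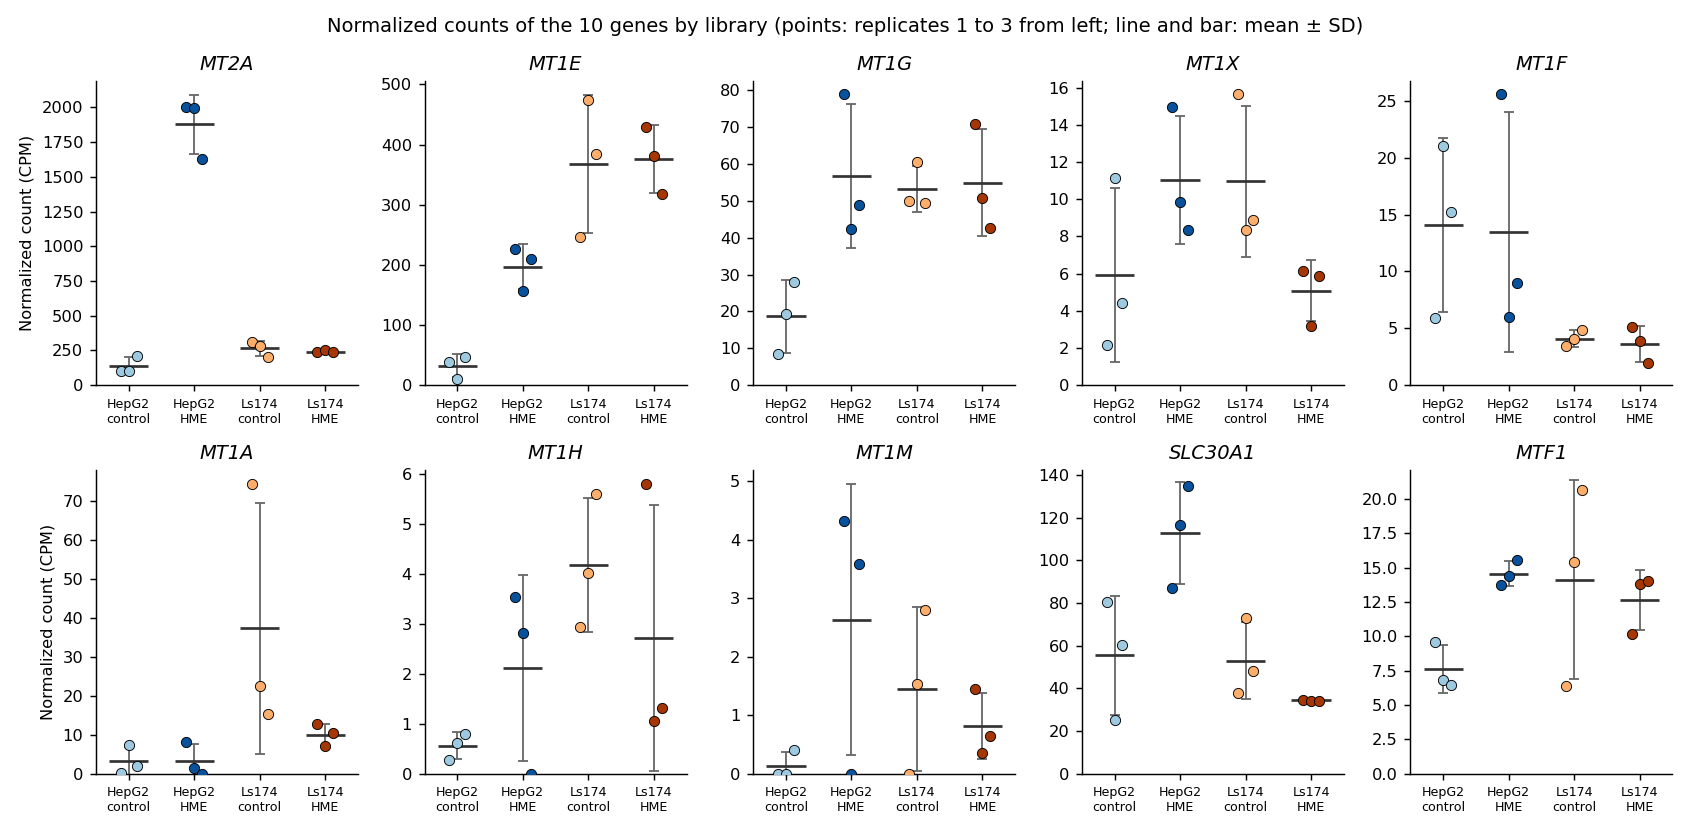
Normalized count (CPM, vertical axis, linear from 0, its range set for each gene) of the 10 genes in the 12 libraries, with points for replicates 1 to 3 from left to right and lines and bars for the mean and SD of each group. MT2A stands at 1632 to 2005 CPM in the HepG2 HME libraries and at or under 307.4 CPM in the other 9.

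MT1G, another isoform of the cluster, was at 8.55, 19.2 and 28.1 CPM in HepG2 controls and at 79.0, 42.5 and 49.0 CPM with HME. All 3 HME libraries were above the controls, but the log2 fold change of 1.63 ± 0.46 did not pass the adjusted test (adjusted p = 0.086). DESeq2 called it (adjusted p = 0.024), as did a fit without the filter on low counts (adjusted p = 0.0025), 1 fit of all 12 libraries (adjusted p = 0.028) and the fit without HepG2 control 2 and HepG2 HME 2 (adjusted p = 0.031).

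The less abundant isoforms showed no call in HepG2 cells. MT1X, counted with fewer reads than its pseudogene MT1XP1, was at 2.14, 11.2 and 4.42 CPM without HME and at 14.9, 9.83 and 8.36 CPM with it. The groups overlapped only through control 2, and the log2 fold change was 1.00 ± 0.61 (adjusted p = 0.36), or 1.87 without that library (adjusted p = 0.055). Over the fits that left out 1 library it was 0.53 to 1.87, with adjusted p values of 0.055 to 0.62. MT1F was at 5.88, 21.1 and 15.3 CPM and at 25.6, 5.97 and 8.96 CPM, with overlapping groups and a log2 fold change of -0.02 ± 0.64 (adjusted p = 0.99).

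MT1A, MT1H and MT1M did not pass the filter on low counts in HepG2 cells. MT1A gave 1, 12 and 5 counts in the controls and 21, 4 and 0 with HME. The mean levels were 3.24 ± 3.74 and 3.22 ± 4.42 CPM (SD, n = 3 each), and the ratio of the summed counts, each sum scaled by the summed library sizes, was 1.54 (95% interval 0.808 to 3.00). MT1H gave 1, 1 and 2 counts against 9, 8 and 0, a ratio of 4.72 (1.54 to 19.3). For MT1M the counts were 0, 0 and 1 against 11, 0 and 6, a ratio of 18.9 (2.96 to 789). These exact binomial intervals cover counting error and not the spread between replicates, and each of the 3 genes had an HME library with no count. In a fit that kept every gene with a count, edgeR gave log2 fold changes of 0.23 ± 0.76 for MT1A, 1.99 ± 1.13 for MT1H and 3.88 ± 1.37 for MT1M, with adjusted p values of 0.90, 0.41 and 0.072, so that none of the 3 was called.

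SLC30A1, the zinc exporter, was at 80.7, 25.4 and 60.2 CPM in HepG2 controls and at 87.3, 117 and 135 CPM with HME. The groups did not overlap, though control 1 and HME 1 were close. The log2 fold change of 1.05 ± 0.41 did not pass the adjusted test (adjusted p = 0.18), and its adjusted p was between 0.11 and 0.41 in the alternatives. MTF1, which encodes the zinc sensor, was at 9.62, 6.81 and 6.43 CPM without HME and at 13.8, 14.4 and 15.5 CPM with it. Its groups did not overlap either, and the log2 fold change was 0.93 ± 0.36 (adjusted p = 0.18). C1orf122, whose end overlaps the MTF1 region on the other strand, had a log2 fold change of 0.26 in the same comparison (adjusted p = 0.66).

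Summed over the 8 metallothionein genes, HepG2 controls 1 to 3 held 160.3, 174 and 307 CPM and the HME libraries 2367, 2214 and 1910 CPM. As a share of all counts this was 0.0150% to 0.0313% without HME and 0.179% to 0.216% with it. The make-up of the sum was compared as a description. MT2A took 64.3 ± 4.16% of it in HepG2 controls and 86.8 ± 2.96% in HME libraries (SD, n = 3 each), with ranges of 59.8% to 68.0% and 84.7% to 90.2% that did not overlap. MT1E took 6.05% to 24.2% without HME and 7.03% to 10.9% with it, so that its share overlapped between the conditions.

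**Figure D2:**
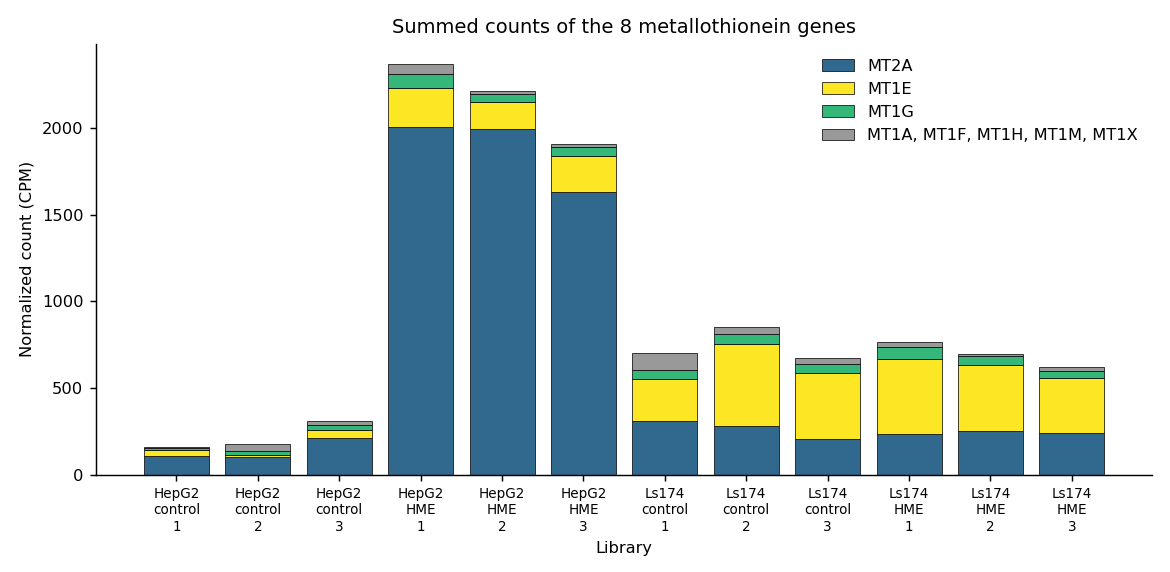
Summed normalized count (CPM, vertical axis from 0) of the 8 metallothionein genes in each of the 12 libraries, with the bar divided among MT2A, MT1E, MT1G and the other 5 genes. The HepG2 HME bars reach 1910 to 2367 CPM and are mostly MT2A, and in 5 of the 6 Ls174 bars MT1E is the largest share.

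In Ls174 cells the 3 isoforms MT2A, MT1E and MT1G did not pass the test. MT2A was at 307.4, 279.8 and 203.8 CPM in Ls174 controls 1 to 3 and at 235.4, 250.2 and 237.8 CPM in HME libraries 1 to 3. The groups overlapped, and the log2 fold change was -0.14 ± 0.21 (adjusted p = 0.81). MT1E was at 246.3, 473.3 and 383.7 CPM without HME and at 429.1, 381.3 and 317.4 CPM with it. Control 1 was the lowest of the 6, the groups overlapped, and the log2 fold change was 0.03 ± 0.26 (adjusted p = 0.97). MT1G was at 49.9, 60.5 and 49.4 CPM and at 71.0, 50.9 and 42.8 CPM, with a log2 fold change of 0.04 ± 0.24 (adjusted p = 0.96).

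In Ls174 cells 3 members were lower in every Ls174 HME library than in every control library, without passing the adjusted test. MT1A was at 74.3, 22.5 and 15.3 CPM without HME and at 12.7, 7.07 and 10.5 CPM with it. Its log2 fold change was -1.88 ± 0.60 (adjusted p = 0.22), and without Ls174 control 1, the highest library and the one that lay apart, it was -0.89 (adjusted p = 0.076). MT1X was at 15.6, 8.33 and 8.91 CPM and at 6.16, 3.18 and 5.88 CPM, with a log2 fold change of -1.10 ± 0.46 (adjusted p = 0.35). SLC30A1 was at 37.6, 72.8 and 48.4 CPM in the controls and at 34.8, 34.3 and 34.3 CPM with HME. Its log2 fold change was -0.63 ± 0.26 (adjusted p = 0.35), and without control 1 it was -0.80 and passed (adjusted p = 0.017). Leaving out control 1 raised the calls over all genes from 134 of 11319 to 979 of 11673.

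Counted together, edgeR called 0 of the 9 members tested in Ls174 cells at an adjusted p under 0.05, while 1.18% of all 11319 genes were called. At an unadjusted p under 0.05 there were 3, MT1A, MT1X and SLC30A1, all lower and past the thresholds of the study, which 7.85% of all genes passed in this direction. The groups of 12.2% of all genes did not overlap in the lower direction. DESeq2 called 1 member, MT1A, with an adjusted p of 0.048, and 438 of all 11319 genes. MT1F, MT1H and MTF1 overlapped between the groups, with log2 fold changes of -0.19, -0.66 and -0.19 and adjusted p values between 0.71 and 0.89. MT1M, with 16 counts without HME and 7 with it, did not pass the filter and had a ratio of 0.466 (95% interval 0.162 to 1.20). With every gene with a count kept, its log2 fold change was -0.89 (adjusted p = 0.73). The summed metallothionein level was 674 to 854 CPM in controls and 618 to 767 CPM with HME, and MT2A took 30.2% to 43.9% of it without HME and 30.7% to 38.5% with it.

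**Figure D3:**
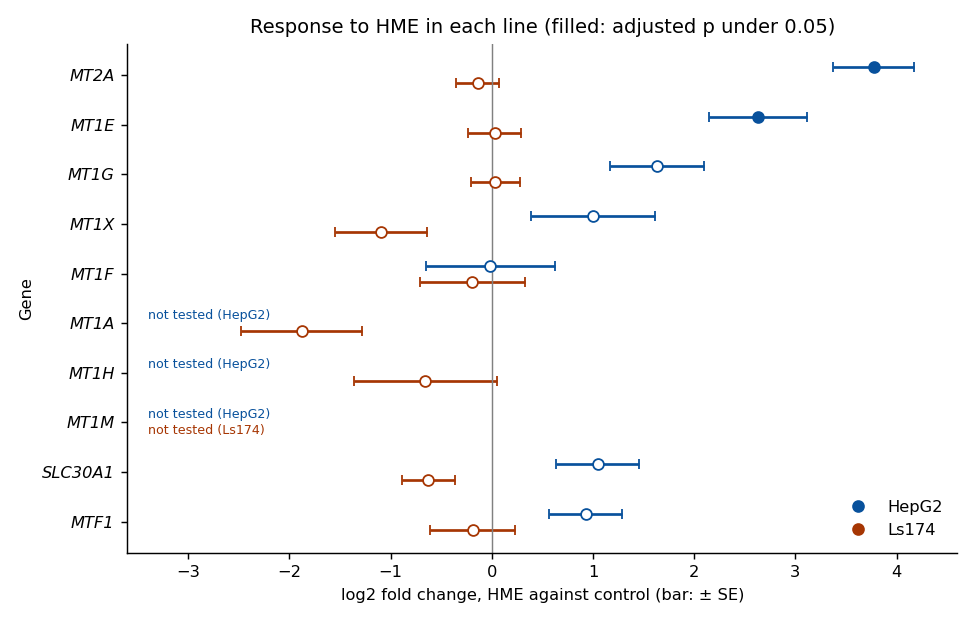
Log2 fold change of each member, HME against control, in HepG2 and Ls174 cells (horizontal axis, bars ± SE), with filled points at an adjusted p under 0.05. MT2A (3.77) and MT1E (2.63) in HepG2 cells are the filled points, and members without a point did not pass the filter in that line.

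The levels of untreated cells were compared next, with the same control libraries as above. MT1E was at 10.5 to 47.4 CPM in HepG2 and 246 to 473 CPM in Ls174 controls, a log2 difference of 3.48 ± 0.56, Ls174 against HepG2 (adjusted p = 0.0018), and it was called in all 18 alternatives. MT1A was at 0.267 to 7.43 CPM in HepG2 and 15.3 to 74.3 CPM in Ls174 controls, a log2 difference of 3.65 ± 1.00 (adjusted p = 0.028). MT1G was at 8.55 to 28.1 CPM against 49.4 to 60.5 CPM, a log2 difference of 1.49 ± 0.45 (adjusted p = 0.042). The groups of all 3 genes did not overlap, which held in this direction for 20.3% of all genes. These were 3 of 8 members tested, all higher in Ls174 cells, where 9.33% of 11907 genes were called higher. The call of MT1G was lost when any single library other than HepG2 control 3 was left out, with adjusted p values up to 0.13, and that of MT1A without HepG2 control 1, HepG2 control 3 or Ls174 control 1, with adjusted p values up to 0.11. Without HepG2 control 2 and Ls174 control 1 together, 6 members were called: MT1A, MT1E, MT1G, MT1X (log2 difference 1.43, adjusted p = 0.035), MTF1 (1.12, adjusted p = 0.023) and MT1H (3.20, adjusted p = 0.0037), which passed the filter in that fit. The 9.33% of all genes belongs to the fit of all 6 libraries, and the share without these 2 is not given here.

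MT1F was the only isoform with a lower mean in untreated Ls174 than in untreated HepG2 cells, at 3.42 to 4.84 CPM against 5.88 to 21.1 CPM in HepG2 controls. Its log2 difference of -1.78 ± 0.59 missed the threshold (adjusted p = 0.059) and passed it by DESeq2 (adjusted p = 0.021). MT2A, with a log2 difference of 0.89 ± 0.39, also missed it (adjusted p = 0.135), as did MT1X, MTF1 and SLC30A1 (adjusted p from 0.28 to 0.91). At the thresholds of the study 5 of 8 members were called, and so were 35% of all genes. MT1H and MT1M did not pass the filter, and their ratios of summed counts, Ls174 to HepG2, were 8.73 (95% interval 3.16 to 33.5, from 41 and 4 counts) and 13.6 (2.12 to 571, from 16 counts and 1 count). MT1H was called in 1 fit of all 12 libraries (log2 difference 2.92, adjusted p = 0.029) and not with every gene with a count kept (2.89, adjusted p = 0.059), where MT1M gave 3.18 (adjusted p = 0.19).

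By mean level, untreated HepG2 cells ordered as MT2A, SLC30A1, MT1E, MT1G, MT1F, MTF1, MT1X, MT1A, MT1H and MT1M, from 139 to 0.134 CPM. Only the first step, from MT2A at 139 ± 60.4 to SLC30A1 at 55.5 ± 28.0 CPM (SD, n = 3 each), separated all the libraries of 2 neighbours in this order. In untreated Ls174 cells the order was MT1E, MT2A, MT1G, SLC30A1, MT1A, MTF1, MT1X, MT1H, MT1F and MT1M, from 368 to 1.45 CPM. MT1E and MT2A overlapped there, at 368 ± 114 and 264 ± 53.7 CPM, since Ls174 control 1 had more MT2A than MT1E. The neighbours that did not overlap in Ls174 controls were MT2A and MT1G, MT1X and MT1H, and MT1F and MT1M. MT1X was ordered here without the counts of MT1XP1, which stood at 16.7 ± 7.63 CPM in HepG2 and 27.7 ± 19.9 CPM in Ls174 controls. How reads that fit both copies were assigned is not given, so the place of MT1X is uncertain. The ratio of MT2A to MT1E counts was 2.70, 9.88 and 4.41 in HepG2 controls, 8.85, 12.8 and 7.81 in HepG2 HME libraries, 1.25, 0.591 and 0.531 in Ls174 controls and 0.549, 0.656 and 0.749 in Ls174 HME libraries.

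A test of the difference between the responses, the interaction of line and HME on all 12 libraries, which uses the libraries of the comparisons above again, called 1 of 9 members, with the response lower in Ls174 than in HepG2 cells. Of 13040 genes, 0.613% were called in this direction. The member was MT2A, with a log2 difference of -3.88 ± 0.45 (adjusted p = 0.00066). It was called in all 23 alternatives, with adjusted p values up to 0.014, and was -3.66 with the MT2P1 counts added and -3.53 without the 3 libraries that lay apart. For MT1E the log2 difference was -2.56 ± 0.59 (adjusted p = 0.069). It passed without HepG2 control 2 (adjusted p = 0.026), without Ls174 control 1 (adjusted p = 0.038) and by DESeq2 (adjusted p = 0.0012). The differences of SLC30A1 (-1.63 ± 0.52, adjusted p = 0.19), MT1G (-1.58 ± 0.55, adjusted p = 0.22) and MT1X (-2.09 ± 0.78, adjusted p = 0.25) did not pass. Without the 3 libraries that lay apart, 4 members passed: MT2A, MT1E, MT1X (-2.65, adjusted p = 0.037) and SLC30A1 (-1.43, adjusted p = 0.037). The share of all genes called in that fit is not given here. At the thresholds of the study 5 of 9 members were lower, against 7.42% of all genes.

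The 5 genes whose pattern was most like the summed metallothionein count were FAM110B, KLF5, RALB, PFKFB3 and RNVU1-16, with Pearson r between 0.972 and 0.987 over the 12 libraries, from log2 CPM centred within each line, among 13031 genes. The points share libraries and the HepG2 contrast between HME and control, and within the 6 Ls174 libraries r was 0.53 for KLF5, 0.22 for RALB and 0.20 for PFKFB3. FAM110B was at 0 in all 6 Ls174 libraries and RNVU1-16 in 5 of them. KLF5, a transcription factor of epithelial cells, was at 1.48 ± 0.212 CPM in HepG2 controls and 43.1 ± 8.41 CPM with HME. PFKFB3, an enzyme that promotes glycolysis, was at 5.44 ± 0.542 and 119 ± 28.7 CPM, with the SD over 3 libraries each. RALB, a small GTPase, was at 45.8 to 51.8 CPM in HepG2 controls and 96.7 to 102 CPM with HME. In Ls174 controls KLF5 was at 71.5 ± 13.1 CPM and PFKFB3 at 78.1 ± 2.93 CPM.

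Among the other zinc transporters edgeR made no call in either line. Of the other SLC30 genes, which encode zinc exporters and vesicular zinc transporters, 6 of 9 were tested in HepG2 and 4 in Ls174 cells, and 0 were called. At an unadjusted p under 0.05 there were 1 in HepG2 and 0 in Ls174 cells, and DESeq2 called 0 in both. Their median log2 fold changes were -0.62 and -0.48. SLC30A10, which encodes an exporter of manganese and zinc, had a log2 fold change of -0.62 in HepG2 cells (adjusted p = 0.39) and was at 0 in all Ls174 libraries. SLC30A3 had a log2 fold change of 0.63 in HepG2 cells (adjusted p = 0.50). SLC30A2 and SLC30A4 were at most at 0.362 and 1.19 CPM in any library and were not tested. The SLC39 family encodes importers that bring zinc into the cytosol. Of its 14 genes 11 were tested in each line and 0 called, with 3 and 4 at an unadjusted p under 0.05, all lower, and 1 and 2 by DESeq2. An unadjusted p under 0.05 was reached by 22.2% of all genes in HepG2 and 13.6% in Ls174 cells. Over all genes DESeq2 called 1033 of 11343 in HepG2 and 438 of 11319 in Ls174 cells. The median of the SLC39 genes was -0.34 in HepG2 and -0.80 in Ls174 cells, where 10 of 11 estimates were below 0, beside medians of -0.04 and 0.00 over all genes. SLC39A10, which had the estimate farthest from 0 of the 11 in Ls174 cells, was at 7.82 to 11.7 CPM in Ls174 controls and at 1.77 to 2.29 CPM with HME (log2 fold change -2.25 ± 0.45, adjusted p = 0.063). In HepG2 cells its log2 fold change was 0.82 (adjusted p = 0.48). SLC39A1 had log2 fold changes of -0.49 in HepG2 and -1.13 in Ls174 cells (adjusted p = 0.41 and 0.32), SLC39A11 had -0.28 and -0.37 (adjusted p = 0.71 and 0.74), and SLC39A12 was at 0 in all 12 libraries. Without Ls174 control 1, 4 of 11 importers were called lower in Ls174 cells: SLC39A10 (log2 fold change -2.34, adjusted p = 0.0028), SLC39A6 (-1.37, adjusted p = 0.00049), SLC39A14 (-1.20, adjusted p = 0.0043) and SLC39A9 (-0.71, adjusted p = 0.014). Calls also rose over all genes in that fit, from 134 of 11319 to 979 of 11673, of which 36.5% were higher. No SLC39 or other SLC30 gene was called in HepG2 cells without control 2 and HME 2, and no other SLC30 gene in Ls174 cells without control 1.

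Copper-handling genes and the neighbours of the metallothionein cluster had no call by edgeR either. Of 9 copper genes, 8 were tested in HepG2 and 6 in Ls174 cells, with 0 called by edgeR. There were 1 and 0 at an unadjusted p under 0.05, and 1 and 0 called by DESeq2. CCS, the copper chaperone of superoxide dismutase, was at 71.2 ± 60.6 CPM in HepG2 controls and 20.4 ± 2.71 CPM with HME (log2 fold change -1.81 ± 0.57, adjusted p = 0.11), and had -0.05 in Ls174 cells (adjusted p = 0.95). The other copper chaperone ATOX1 had log2 fold changes of -0.36 and 0.00 (adjusted p = 0.62 and 1.00), the copper pump ATP7B had -0.40 in HepG2 cells (adjusted p = 0.68), and its relative ATP7A, at up to 4.01 CPM in HepG2 and 5.86 CPM in Ls174 cells, was not tested. Without Ls174 control 1, COX17 (0.58, adjusted p = 0.0496) and COMMD1 (0.57, adjusted p = 0.046) were called higher in Ls174 cells, where with all libraries COX17 had 1.03 (adjusted p = 0.43) and COMMD1 -0.53 (adjusted p = 0.69), the opposite sign. The fit without Ls174 control 1 called 979 of all 11673 genes, 36.5% of them higher. Of 8 flanking genes on chromosome 16, 6 were tested in each line and 0 were called by edgeR. There was 1 at an unadjusted p under 0.05 in each line, and DESeq2 called 1 in HepG2 and 0 in Ls174 cells. DESeq2 called 1033 of all 11343 genes in HepG2 and 438 of 11319 in Ls174 cells. The gene at an unadjusted p under 0.05 in both lines, HERPUD1 of the endoplasmic reticulum stress response, was at 81.9 to 132 CPM in HepG2 controls and 187 to 275 CPM with HME (log2 fold change 1.19 ± 0.33, adjusted p = 0.079). In Ls174 cells its log2 fold change was 0.79 (adjusted p = 0.22), and 0.60 without control 1 (adjusted p = 0.048). BBS2 had log2 fold changes of 0.16 in HepG2 and 0.69 in Ls174 cells (adjusted p = 0.87 and 0.56), and GNAO1, at up to 1.19 CPM, was not tested. Without HepG2 control 2 and HepG2 HME 2, no copper or flanking gene was called in HepG2 cells. The flanking genes had median log2 fold changes of 0.25 in HepG2 and 0.16 in Ls174 cells. The medians of the metallothioneins tested, 5 in HepG2 and 7 in Ls174 cells, were 1.63 and -0.19. In HepG2 cells these metallothioneins ran from -0.02 for MT1F to 3.77 for MT2A. Of 12 other genes and pseudogenes with metallothionein-like names, 1 was tested in HepG2 cells (MT1XP1) and 2 in Ls174 cells (MT1XP1 and MTL5). Of these, 0 were called by edgeR or DESeq2, and 0 had an unadjusted p under 0.05. MT2P1, described above, is not among these 12. MT1B, MT1CP and MT1DP, which were not tested, reached at most 3.93, 0 and 1.45 CPM, and MT1IP matched no gene of the files. Without the libraries that lay apart, 0 genes of this list were called in either line.

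Of 10 genes of the response to metals and oxidants outside the zinc system, 7 rose in HepG2 cells, where 2.77% of all genes were called higher, and 0 fell, with a median log2 fold change of 2.07. This list was chosen with earlier results of these data known. HMOX1, the heme-degrading oxygenase, rose from 58.2 to 100.2 CPM in controls to 455 to 854 CPM (log2 fold change 3.14 ± 0.39, adjusted p = 0.0029). TXNRD1, a thioredoxin reductase, was 3.24 ± 0.60 higher (adjusted p = 0.020), SRXN1, which repairs peroxiredoxins, 2.90 ± 0.43 (adjusted p = 0.0080), and GCLC, the catalytic subunit of the first enzyme of glutathione synthesis, 2.48 ± 0.32 (adjusted p = 0.0033), all as log2 fold changes. GCLM, its partner subunit, the cystine transporter SLC7A11 and the heat shock gene HSPA1A were called with log2 fold changes of 2.13, 2.01 and 1.57 (adjusted p = 0.0498, 0.011 and 0.040). Without HepG2 control 2 and HepG2 HME 2, 8 of 10 were called higher, DNAJB1 included (log2 fold change 1.31, adjusted p = 0.017). The share of all genes called without both is not given here. Leaving out control 2 alone raised the calls over all genes from 375 of 11343 to 921 of 11899.

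In Ls174 cells 1 of the 9 stress genes tested was called, SRXN1, which rose from 95.4 to 106 CPM in controls to 221 to 287 CPM (log2 fold change 1.33 ± 0.19, adjusted p = 0.030). Of all genes, 1.18% were called in Ls174 cells. DESeq2 called 4 of the list, against 438 of all 11319 genes. By edgeR 7 of the list had an unadjusted p under 0.05, against 13.6% of all genes. Without Ls174 control 1, edgeR called 4 of 9 higher: SRXN1 (log2 fold change 1.35), NQO1 (1.09), GCLM (1.03) and GCLC (0.90), with adjusted p values from 0.00018 to 0.0091. Over all genes that fit called 979 of 11673, 36.5% of them higher. HMOX1 was at 0.489 to 3.70 CPM in Ls174 controls and at 6.36 to 11.1 CPM with HME (log2 fold change 1.60 ± 0.61, adjusted p = 0.31). The median over the list was 0.97 in Ls174 cells, where that of the 9 members tested was -0.19. None of the 10 stress genes passed the test of a difference between the lines, where edgeR gave adjusted p values from 0.097 to 1.00.

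**Figure D4:**
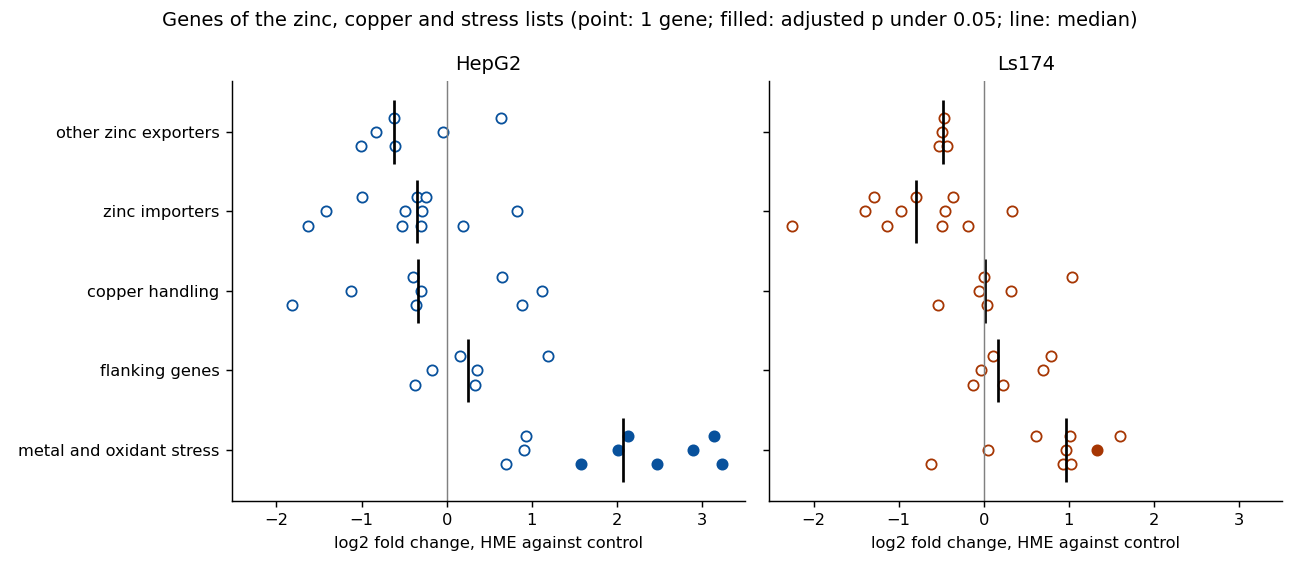
Log2 fold change, HME against control (horizontal axis), of the tested genes of 5 lists in HepG2 and Ls174 cells, 1 point for each gene, filled at an adjusted p under 0.05, with a line at the median of the list. Filled points occur only in the metal and oxidant stress list, 7 in HepG2 cells and 1 in Ls174 cells.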

How the data were processed

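Per the methods of the study and the labels, the authors prepared QuantSeq 3′ libraries, aligned reads with Hisat2 at default settings to hg19 (GRCh37) and passed the alignments to metaseqR2. The submitters' processing notes also name Bowtie2 and Trimmomatic, with no role. The deposited files hold counts, not normalized, for 144910 3′ regions per library. Versions, and the treatment of strand and of reads with several alignments, are not given in the sources used here. A region listed under several genes (717 regions) was counted for each.

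Counts were summed over the regions of a gene. Levels are CPM over full library totals with TMM factors of the 12 libraries. Tests used edgeR 4.0.16 in R 4.3.3 (filterByExpr by group, TMM on the kept genes, two-sided quasi-likelihood F test, Benjamini-Hochberg adjustment over all tested genes), on the 6 libraries of a comparison or, for the interaction, on all 12, without covariates. The SE was derived from F. A test with a term for replicate spread was used in place of the binomial test the study names. The procedure was tested on simulated data, drawn with the same relative spread for every gene and no library apart. That test does not show how the calls behave with the libraries that lay apart here. Ratios of untested genes have exact binomial 95% intervals. Totals of 1790841 to 3656662 counts and the floor of 3 counts set the precision, and intervals and floors cover counting error only. The p values measure the spread between cultures of 1 line each.

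Alternatives were DESeq2 1.42.0, other scalings, filters and counting of regions, 1 fit of all libraries, a replicate block and leaving out libraries. Adding the pseudogene counts and leaving out the libraries that lay apart were chosen after seeing the data. Members, gene lists and tests were chosen with earlier results of these data known. The text names all members, the genes of a list that passed the test or the first 4 in alphabetical order (1 of these genes is not reported here), and the 5 genes most like the summed metallothioneins. Log2 CPM for likeness and distance used a prior count of 2. Regions were aligned with blastn 2.17.0+ to GRCh37 and annotated with GENCODE lifted to that build. Promoters were read in GRCh38.p14 and not joined to the coordinates of the files. Python 3.11.15 with pandas 2.3.3 and matplotlib 3.10.9 made tables and figures.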

Additional observations from a re-analysis of the deposited data

Results flagged for a closer look

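The HME response of MT2A differed between the lines by the interaction test, with a log2 difference of -3.88, Ls174 minus HepG2 (edgeR adjusted p = 0.00066). For SLC30A1, all 3 HME libraries were above all 3 controls in HepG2 cells and below all 3 controls in Ls174 cells. The log2 difference of its responses was -1.63 and did not pass the interaction test (edgeR adjusted p = 0.19), so that the responses are not shown to differ. It passed without the 3 libraries that lay apart (-1.43, adjusted p = 0.037), a choice made after seeing the data. The edgeR adjusted p of SLC30A1 lay between 0.12 and 0.39 when single libraries were left out.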

How the results depend on the processing

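No called member changed direction under any alternative, while MT1F in HepG2 cells, not called, was below 0 in 11 of 18. At the thresholds of the study, 5 members were called in HepG2 cells (2 by adjusted p), 3 in Ls174 cells (0), 5 between the untreated lines (3) and 5 for the difference between the responses (1). DESeq2 called 1 in Ls174 cells and 2 for the difference, and so did testing every gene with a count (1 and 2). Between the untreated lines 1 member was called with at least 10 counts in every library, 6 in 1 fit of all 12 libraries and 1 with the replicate block. Over all genes these fits called 912 of 7618, 4631 of 13040 and 1890 of 11907, beside 2798 of 11907 in the test used above. Without the libraries that lay apart 6 members were called between the untreated lines and 4 for the difference, with no share of all genes given beside these counts. Leaving out each library in turn gave 1 to 2 calls in HepG2 cells, 0 to 1 in Ls174 cells, 2 to 3 between the untreated lines and 1 to 2 for the difference. Over the members tested in each comparison above, calls were lost 3 times and gained 4 times in HepG2 cells, gained 3 times in Ls174 cells, lost 12 times and gained 7 times between the untreated lines and gained 7 times for the difference. The cause of these moves was not tested. Over all genes the number called was 375 in HepG2 and 134 in Ls174 cells, 2798 between the untreated lines and 84 for the difference. With the replicate block it was 349, 0, 1890 and 16. The deviations of same-numbered libraries from their group means had r from -0.38 to 0.11, and the block left the calls of members in HepG2 cells at 2. With 3 libraries per group, these r values cannot show whether same-numbered cultures shared a day or batch. Over all genes, DESeq2 called 1033, 438, 3461 and 397, and leaving out single libraries gave 95 to 921 in HepG2 and 0 to 979 in Ls174 cells. Scaling by library size moved the median log2 fold change of all HepG2 genes from -0.04 to -0.20 and the share of calls that were higher from 83.7% to 60.3%, and upper quartile scaling moved that share to 72.0%. MT2A and MT1E were called in HepG2 cells under both. At this depth MT1A, MT1H and MT1M in HepG2 cells did not pass the filter on low counts, and with every gene with a count kept their adjusted p values were 0.072 to 0.90. MT1H, not counted in those sums, was called between the untreated lines in 1 fit of all 12 libraries, without HepG2 control 2, without Ls174 control 1 and without both.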
